A study of Mus musculus with 12 samples.

Results

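The 10 AP-1 and Egr immediate early genes were followed in RNA-Seq of mouse abdominal aorta. The members were chosen by name, with earlier results of these data known, as the 4 Fos genes (Fos, Fosb, Fosl1 and Fosl2), the 3 Jun genes (Jun, Junb and Jund), Atf3, Egr1 and Egr2. The deposited table lists 55092 features, 54532 of them with an identifier of a mouse gene in Ensembl, and all 10 members passed the filter on low values.

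Poly(A) RNA was sequenced from aortas of 12 male mice in 4 groups of 3. CCN2fl/fl mice, which carry floxed Ccn2 and no Cre, were infused for 7 days with saline (CFS) or with angiotensin II, a vasoconstrictor peptide (CFA). CCN2SMCΔ mice carry the same floxed gene together with Myh11-Cre-ERT2, a tamoxifen-inducible Cre driven by a smooth muscle myosin promoter, and were infused with saline (CSS) or angiotensin II (CSA). All 4 groups had received 5 doses of tamoxifen at 8 weeks of age with 2 weeks of washout, and the dose of angiotensin II (Ang II) was 500 ng/kg/min from osmotic pumps. The study describes the deletion as specific to smooth muscle. Other cells of the wall would then keep intact Ccn2, but deletion by cell type was not measured here. Ccn2, the targeted gene, stood at 709, 1108 and 480 FPKM in CFS, at 436, 640 and 587 in CSS, at 1013, 1105 and 564 in CFA and at 255, 331 and 399 in CSA. Its 3 CSA values lay below all CFA values (log2 fold change -1.41, SE 0.34, adjusted p = 0.00622 by limma), whereas those of CSS overlapped those of CFS (-0.40, SE 0.34, adjusted p = 1). The genotype of the CSS libraries thus rests on their labels, since Ccn2 in whole aorta does not tell them from CFS. That of the CSA libraries rests on labels too. All 8 smooth muscle marker genes were also called lower in CSA against CFA, with a median log2 fold change of -2.99. Deletion of Ccn2 and less smooth muscle RNA cannot be told apart there.

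AP-1 is a dimer of leucine zipper proteins in which a Jun protein pairs with a Fos protein, with another Jun or with an ATF protein. Egr proteins are zinc finger factors that bind a GC-rich site. Both sets are encoded by immediate early genes, which are transcribed within minutes of a stimulus from factors already present in the cell, among them serum response factor (SRF) and CREB, and whose messengers are short lived. In the vessel wall they are known to be switched on by growth factors, stretch, injury and Ang II itself, and also by the handling and dissociation of tissue after death. Levels measured after days of infusion are therefore levels at one moment of harvest.

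Values are FPKM, which scales the fragments of a gene by the length of its exons and by the size of the library, as the authors deposited them. Fold changes are differences of the mean log2(FPKM + 0.1), fitted with limma over the 12 libraries. A gene is called where its p, adjusted after Benjamini and Hochberg with all 14676 tested genes counted, is under 0.05 and its absolute log2 fold change is over 1.5. Beside the fits stands a two-sided exact permutation test of each pair of groups, which with 3 mice against 3 cannot give a p below 0.1. In whole aorta, fewer cells of a type and less RNA per cell cannot be told apart.

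The members lie on 9 chromosomes of GRCm38. Fos (ENSMUSG00000021250) spans chr12:85473890-85477273, Fosb (ENSMUSG00000003545) chr7:19302696-19310051, Fosl1 (ENSMUSG00000024912) chr19:5447547-5455946 and Fosl2 (ENSMUSG00000029135) chr5:32135801-32157842. Jun (ENSMUSG00000052684) is a gene of a single exon at chr4:95049034-95052222, as is Jund (ENSMUSG00000071076) at chr8:70698949-70700616, and Junb (ENSMUSG00000052837) lies on the same chromosome at chr8:84974484-84978718. Atf3 (ENSMUSG00000026628) spans chr1:191170296-191218039, Egr1 (ENSMUSG00000038418) chr18:34859823-34864984 and Egr2 (ENSMUSG00000037868) chr10:67535475-67542188. The library protocol names no step that marks strand. Fosl1 shares 57.2% of its exonic bases with Ccdc85b and Jund 52.6% with Gm11175, each on the other strand, so fragments of these pairs cannot be told apart. For Jun (7.3%, with Junos) and Junb (7.5%, with Prdx2) the overlap is small.

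Depth recovered from the FPKM ran from 14555508 fragments, in CSA mouse 03, to 23102755. CSA mouse 03 stood apart from the other libraries. It lay 1.21 and 1.2 log2 units (root mean square over tested genes) from its 2 group mates, which were 0.505 apart, and pairs within the other groups lay 0.586 to 0.743 apart. In this mouse the 608 tested genes with at least 60% GC in their transcripts were lower than in its group mates by a median log2 difference of -1.5, and the 3769 genes under 45% GC were higher by 0.55. In the 9 mice of the other groups the difference between those sets of genes lay between -0.21 and 0.15. Only 270 features were counted at 1 fragment in CSA mouse 03, against 1122 to 2422 in the other libraries. Jund (67.1% GC) and Junb (62.6% GC) are the most GC-rich members. The members' fold changes and counts of calls that involve CSA are therefore given with and without this mouse.

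The stretches of 100 bases before a start site are shown for Fosb and Egr2, whose CSA mice lay below and above all other mice, respectively, and for Jun, whose site for ATF and Jun proteins is the classic AP-1 element of its own promoter. The stretch of Jund, whose CSA mice also lay below all other mice, is not shown. Those shown were read 5′ to 3′ on the strand of the gene from RefSeq on GRCm38.p6. Capitals mark a CArG box, the site of SRF, in the 2 Egr2 stretches, and a match to TGACNTCA in Jun.
Egr2, chr10:67537466-67537565, plus strand: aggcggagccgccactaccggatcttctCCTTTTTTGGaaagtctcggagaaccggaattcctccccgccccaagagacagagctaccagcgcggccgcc
Egr2, chr10:67537769-67537868, plus strand: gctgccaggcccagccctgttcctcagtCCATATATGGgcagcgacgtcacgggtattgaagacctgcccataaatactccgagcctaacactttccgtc
Jun, chr4:95052223-95052322, minus strand: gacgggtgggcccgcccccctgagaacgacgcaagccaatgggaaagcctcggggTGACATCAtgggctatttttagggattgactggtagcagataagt
Fosb, chr7:19310046-19310145, minus strand: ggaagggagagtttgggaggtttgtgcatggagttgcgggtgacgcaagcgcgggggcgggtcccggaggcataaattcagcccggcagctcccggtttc

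Windows were present for 8 members, 12 windows in all, and the 250 bases before each start were searched on both strands. The CArG box begins at position -72 from the start in both Egr2 stretches shown, and a CArG box is present in 1.47% of all 32851 windows. The ATF and Jun site (TGACNTCA) begins at -45 in Jun and occurs in 7.49% of windows. The AP-1 site TGACTCA, present in 4.46% of windows, and the Egr site GCGTGGGCG, present in 0.536%, were in no member's window. None of the 4 motifs was in the windows of Fos, Fosb, Fosl2, Junb, Jund and Atf3, which says only that these letters are not in those 250 bases.

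**Figure D1:**
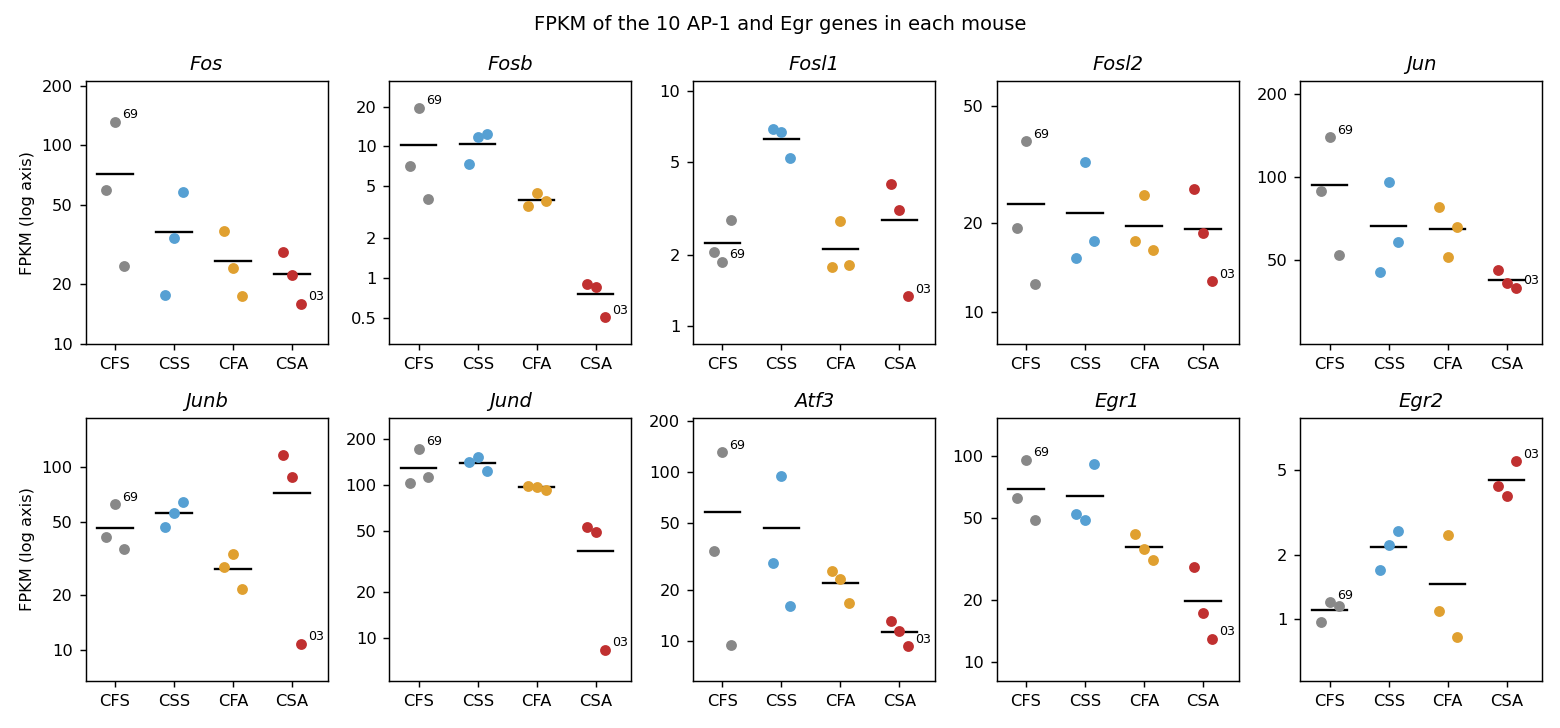
FPKM of each member in each of the 12 mice on a log axis, by group, with the group mean as a bar. CFS mouse 69 and CSA mouse 03 are marked with their numbers. Fosb in CSA (0.502 to 0.899 FPKM) lies below, and Egr2 in CSA (3.76 to 5.47 FPKM) above, every mouse of the other groups.

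In saline-infused CCN2fl/fl aorta the order of mean levels per length was Jund (129 FPKM), Jun (93.5), Fos (72.2), Egr1 (69.1), Atf3 (57.9), Junb (46.8), Fosl2 (23.2), Fosb (10.2), Fosl1 (2.25) and Egr2 (1.10). Neighbours in this order from Jund down to Fosb had overlapping ranges over the 3 mice, and Fosb, Fosl1 and Egr2 did not overlap each other. The spread within CFS was wide. Atf3 differed 13.7-fold between its lowest and highest CFS mouse, Fos 5.34-fold and Fosb 4.97-fold, while Jund differed 1.66-fold and Egr2 1.23-fold. CFS mouse 69 had the highest value of its group for 9 of the 10 members. CSA mouse 03 had the lowest value of its group for 9 of 10, with Egr2 the exception.

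Fosb, a Fos protein that needs a Jun partner to bind DNA, separated CSA from every other group. It stood at 7.08, 19.6 and 3.95 FPKM in CFS mice 68, 69 and 70, and at 7.35, 11.7 and 12.4 in the CSS mice. It was 3.52, 4.42 and 3.82 FPKM in CFA and 0.899, 0.861 and 0.502 in CSA. The highest CSA mouse was below the lowest mouse of each other group. Fosb fell in CSA against CFA by 2.27 on the log2 scale (SE 0.47, 95% interval -3.30 to -1.23, adjusted p = 0.00271 by limma, exact permutation p = 0.1), and against CSS by 3.63 (SE 0.47, interval -4.67 to -2.59), or 3.40 without CSA mouse 03. Its levels in CSA rest on 114, 114 and 48 fragments, against 479 to 585 in CFA. Without CSA mouse 03 the fall against CFA was 2.03 (SE 0.53, adjusted p = 0.0105), which is also called. At this level the added 0.1 understates the change, and with a pseudocount of 1 the log2 fold change was -1.49, just short of the fold limit. CFA was lower than CFS by a log2 fold change of -1.05 (adjusted p = 0.522), with overlapping mice, and CSS and CFS overlapped (0.31, adjusted p = 1).

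Fos, the founding member and the fastest to respond, had its highest mean in CFS, and its mice overlapped in each of the 4 comparisons. It was 59.8, 132 and 24.7 FPKM in CFS, 17.6, 34.4 and 58.6 in CSS, 36.9, 24.2 and 17.5 in CFA and 29.1, 22.3 and 16.0 in CSA. The 3 CSA mice lay within the range of the CSS mice or just under it, and 2 of them within that of the CFA mice. Its log2 fold change was -0.20 between CSA and CFA (SE 0.58, 95% interval -1.49 to 1.09) and 0.03 without CSA mouse 03. It was -0.59 between CSA and CSS, -0.37 without CSA mouse 03, and -1.21 between CFA and CFS (interval -2.50 to 0.08, adjusted p = 0.569). With 3 mice per group these intervals were wide, and a difference of any size within them remains possible.

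Fosl2, a Fos protein without the strong activation domain of Fos and Fosb, did not separate any pair of groups. It ran from 12.4 to 37.9 FPKM in CFS, from 15.2 to 32.1 in CSS, from 16.2 to 24.8 in CFA and from 12.7 to 26.1 in CSA. The log2 fold changes in the 4 comparisons lay between -0.16 and -0.03, with SE 0.42. Leaving out CSA mouse 03 gave 0.20 between CSA and CFA and 0.10 between CSA and CSS.

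Fosl1 (Fra-1), which takes over from Fos in cells under sustained growth signals, was highest in saline-infused CCN2SMCΔ mice. It was 2.06, 1.88 and 2.82 FPKM in CFS and 6.90, 6.67 and 5.17 in CSS. It was 1.78, 2.79 and 1.82 FPKM in CFA and 4.01, 3.12 and 1.34 in CSA. Every CSS mouse stood above every mouse of the other 3 groups. Between CSS and CFS the log2 fold change was 1.44 (SE 0.35, 95% interval 0.67 to 2.21, adjusted p = 0.339 by limma, exact permutation p = 0.1), which did not pass the adjustment over all genes. Over 22 alternatives its adjusted p lay between 0.0123 and 0.964, and it was 0.0274 without CSA mouse 03. Against CSS, CSA was lower by a log2 fold change of -1.24 (SE 0.35, adjusted p = 0.0135), under the fold limit, and of -0.79 without CSA mouse 03 (adjusted p = 0.0186). CSA and CFA overlapped (0.29, SE 0.35, adjusted p = 0.541). Without CSA mouse 03, the lowest of the 12 libraries for Fosl1, that difference was 0.74 (SE 0.24, adjusted p = 0.0288), also under the fold limit. Since 57.2% of its exonic bases lie under Ccdc85b, these values may hold fragments of that gene.

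Within the Fos family the make-up of the summed FPKM shifted. Fosb held 8.0% to 10.2% of the family sum in CFS, 13.2% to 15.6% in CSS, 5.9% to 9.7% in CFA and 1.5% to 1.9% in CSA. Fos held 48.4% to 52.3% in CSA and 43.0% to 61.9% in CFA, and Fosl2 41.3% to 43.4% in CSA and 29.2% to 44.1% in CFA. In the saline groups Fos held 56.3% to 69% (CFS) and 37.4% to 62.6% (CSS), and Fosl2 19.8% to 28.3% (CFS) and 18.6% to 37.8% (CSS). The share of Fosb was lower in CSA than in every mouse of the other 3 groups. The share of Fosl2 was higher in CSA than in both saline groups, and that of Fos lower than in CFS, but neither separated CSA from CFA. Since a share is a ratio within a library, it does not depend on the scaling between libraries.

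Jund, the Jun protein that most tissues express constantly and that restrains growth in many cells, was the most abundant member in CFS, CSS and CFA. It stood at 103, 171 and 112 FPKM in CFS, at 140, 152 and 123 in CSS, at 98.8, 96.8 and 92.8 in CFA and at 53.2, 48.9 and 8.41 in CSA. All 3 CSA mice were below all others, and CSA mouse 03 was far below its group mates, 6.32-fold under the highest of them. Jund fell in CSA against CFA by 1.78 on the log2 scale (SE 0.55, interval -3.00 to -0.55, adjusted p = 0.0252 by limma) and against CSS by 2.30 (SE 0.55, adjusted p = 0.00572). Without CSA mouse 03 the differences were -0.91 (SE 0.19, adjusted p = 0.00271) and -1.43 (SE 0.19, adjusted p = 0.000127), both under the fold limit, and with a correction for transcript GC content they were -0.91 and -1.29. The adjusted p between CSA and CFA was 0.0646, 0.0582 and 0.0599 without CFA mouse 71, 72 and 74 in turn, and 0.103 in a fit of these 2 groups alone. In these 4 fits the size of the fall stayed between 1.76 and 1.80 on the log2 scale, while CSA mouse 03 and the GC correction changed it.

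Junb, a Jun protein that is strongly inducible and often opposes Jun, went in opposite directions within CSA. It was 41.6, 62.9 and 35.9 FPKM in CFS, 47.4, 56.3 and 64.7 in CSS and 28.5, 33.6 and 21.8 in CFA. In CSA it was 117 and 88.9 FPKM in mice 01 and 02, above every other library, and 10.9 in mouse 03, below every other library. Over the 3 mice the log2 fold change between CSA and CFA was 0.81 (SE 0.69, interval -0.72 to 2.34, adjusted p = 0.377 by limma). Without mouse 03 it was 1.89 (SE 0.26, adjusted p = 0.000213), which is called, with array weights 1.75 (adjusted p = 0.000194) and with the GC correction 1.42 (adjusted p = 0.00971). Between CSA and CSS it was -0.20 with all mice (adjusted p = 0.833) and 0.87 without mouse 03 (adjusted p = 0.0164). The 3 CFA mice lay below the 3 CFS mice (log2 fold change -0.72, adjusted p = 0.869).

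Jun, the founding Jun protein and a partner of every Fos protein, did not pass the test in any comparison. It was 89.1, 139 and 52.2 FPKM in CFS, 45.3, 95.8 and 58.5 in CSS, 78.2, 51.4 and 65.9 in CFA and 46.2, 41.5 and 39.8 in CSA. The CSA mice were the closest to each other of any group, 1.16-fold from lowest to highest, and none reached the lowest CFA mouse. The log2 fold change between them was -0.60 (SE 0.35, interval -1.36 to 0.17, adjusted p = 0.197 by limma), which did not pass, and it was -0.55 without CSA mouse 03. Between CSA and CSS, which overlapped, it was -0.58, and -0.53 without that mouse.

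The order of the Jun genes therefore differed in CSA. Jund held 44.1% to 60.2% of the summed FPKM of the Jun genes in the 9 mice of CFS, CSS and CFA, and Junb 12.1% to 26.3%. In CSA mice 01 and 02 Junb held 54% and 49.6% and Jund 24.6% and 27.3%. In CSA mouse 03 Jun held 67.4%, Junb 18.4% and Jund 14.2%, and the sum was 59.1 FPKM against 216 and 179 in its group mates. That library is the one whose values fall with GC content.

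Atf3, a stress-induced ATF protein that represses or activates depending on its partner, varied widely between the mice of the saline groups. Its highest mouse was 13.7-fold over its lowest in CFS and 5.84-fold in CSS, against 1.56-fold in CFA and 1.42-fold in CSA. It was 34.1, 130 and 9.50 FPKM in CFS, 28.9, 94.3 and 16.2 in CSS, 26.0, 23.2 and 16.7 in CFA and 13.2, 11.4 and 9.27 in CSA. The CSA mice lay below all CFA and CSS mice, but CFS reached down to the same level. The log2 fold change was -0.95 between CSA and CFA (SE 0.82, interval -2.76 to 0.87, adjusted p = 0.387) and -1.65 between CSA and CSS (SE 0.82, adjusted p = 0.125). Both were close to this without CSA mouse 03, at -0.82 and -1.52.

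Egr1, which in arteries is an early factor of injury and drives genes such as that of tissue factor and the PDGF chains, was lowest in CSA. It was 62.4, 95.8 and 49.0 FPKM in CFS, 52.4, 48.7 and 91.1 in CSS, 41.5, 35.4 and 31.2 in CFA and 28.9, 17.2 and 12.9 in CSA. Every CSA mouse was under the lowest CFA mouse, and every CFA mouse under the lowest mouse of CFS and of CSS. Egr1 fell in CSA against CSS by 1.72 on the log2 scale (SE 0.34, interval -2.47 to -0.97, adjusted p = 0.00169 by limma). The difference was -1.46 without CSA mouse 03, -1.44 without CSS mouse 56 and -1.35 with the GC correction, each under the fold limit with an adjusted p of at most 0.00828. Between CSA and CFA the log2 fold change was -0.94 (SE 0.34, adjusted p = 0.0466), under the fold limit, and without CSA mouse 03 it was -0.68 (adjusted p = 0.136). Between CFA and CFS it was -0.89 (SE 0.34, adjusted p = 0.438).

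Egr2 (Krox20), known from Schwann cells and from activated T cells and macrophages, rose in CSA, against the direction of Egr1. It was the least abundant member in CFS, at 0.971, 1.20 and 1.14 FPKM, and stood at 1.69, 2.22 and 2.58 in CSS. It was 1.09, 2.47 and 0.819 FPKM in CFA and 4.17, 3.76 and 5.47 in CSA. The 3 CSA mice were above all others, CSA mouse 03 the highest of them, and the CSS mice were above the CFS mice. The rise in CSA against CFA was 1.68 on the log2 scale (SE 0.34, interval 0.93 to 2.42, adjusted p = 0.00224 by limma), from 59 to 178 fragments in CFA and 271 to 288 in CSA. It was 1.52 without CSA mouse 03, 1.74 with the GC correction, and 1.37 without CFA mouse 74 (adjusted p = 0.00911), under the fold limit, as was the 1.2 with a pseudocount of 1. Against CSS the log2 fold change was 1.01 (SE 0.34, adjusted p = 0.0292), and 0.86 without CSA mouse 03 (adjusted p = 0.075), which no longer passed. Between CSS and CFS it was 0.90 (SE 0.34, adjusted p = 0.671).

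**Figure D2:**
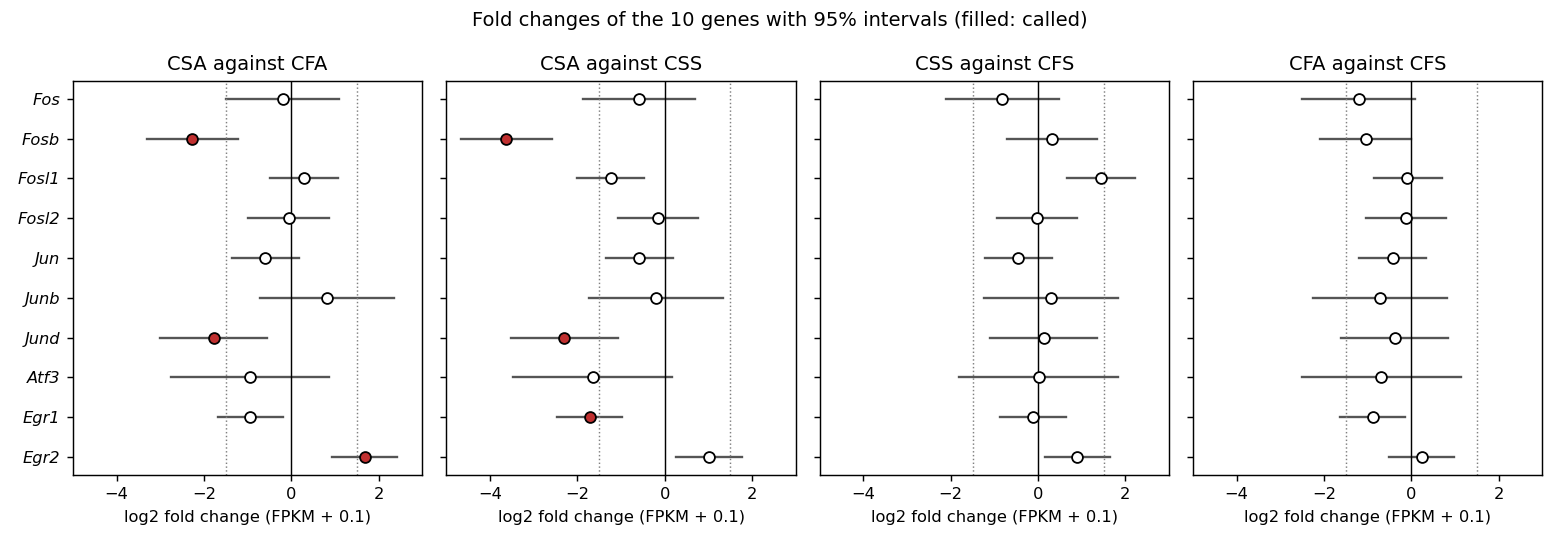
Log2 fold changes of the 10 members with their 95% intervals in 4 comparisons, each as first group against second. Filled points are called and dotted lines mark the fold limit. Fosb is at -2.27 and -3.63 in the comparisons that involve CSA, and no member is called between CSS and CFS or between CFA and CFS.

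The comparison of CSA with CFA asks how the aortas differ by genotype under Ang II. Of the 10 members, 1 was called higher (Egr2) and 2 lower (Fosb and Jund), where 8.95% of all tested genes were called higher and 8.27% lower. At an adjusted p under 0.05 with no fold limit there were 4 members, Egr1 being the other, and 40.7% of all genes. The mice of both groups did not overlap for 6 members (Fosb, Jun, Jund, Atf3, Egr1 and Egr2), against 48.5% of all genes. The median log2 fold change of the members was -0.40 beside -0.04 over all genes, and the median of the absolute values was 0.88 beside 0.54. Without CSA mouse 03, 2 members were called higher (Junb and Egr2) and 1 lower (Fosb), where 6.26% of 14066 genes were called higher and 7.53% lower. The median log2 fold change of the members was then -0.26.

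Between CSA and CSS, which asks how Ang II and saline differ in mice labelled CCN2SMCΔ, 3 members were called lower (Fosb, Jund and Egr1) and 0 higher, where 9.36% of genes were called lower and 10.9% higher. With no fold limit the count was 5, with Fosl1 lower and Egr2 higher, against 46.2% of genes. The groups did not overlap for 6 members, against 55.4% of genes. Beside the 0 called higher stood Egr2 at an unadjusted p of 0.0122, the only member with a positive fold change when all mice were used. When CSA mouse 03 was left out only Fosb was called, 1 lower and 0 higher, where 8.54% of genes were called lower and 8.25% higher, and Junb then had a positive difference of 0.87.

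Between CSS and CFS, which asks how the genotypes differ under saline, and where Ccn2 itself overlapped, limma called 0 members, and 0.0136% of all genes. Fosl1 and Egr2 had an unadjusted p under 0.05, 2 of 10 where 6.3% of all genes did, and the same 2 did not overlap, where 20.4% of all genes did not. Between CFA and CFS, which asks what Ang II does in CCN2fl/fl mice, limma called 0 members and 0.0273% of genes. Fosb and Egr1 had an unadjusted p under 0.05, where 9.42% of genes did. Junb, Jund and Egr1 did not overlap, all lower in CFA, where 20.2% of genes did not overlap, and 9 of the 10 members had a negative fold change, with a median of -0.56 beside 0.0 over all genes. Without CFS mouse 69, the highest of its group for 9 members, 7 of 10 were negative with a median of -0.18, and Fosl2 (0.31) and Atf3 (0.26) turned positive. Limma with array weights, with treat and without moderation by trend also called 0 members in both comparisons. These comparisons share groups of mice with each other, so the values of a member across them are not independent.

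The interaction term tests whether the genotype difference under Ang II differs from that under saline. It was called for Fosb only, at -2.58 on the log2 scale (SE 0.66, interval -4.04 to -1.11, adjusted p = 0.0151 by limma), the fall of 2.27 between CFA and CSA set against a difference of 0.31 in the other direction between CFS and CSS. This was 1 member lower and 0 higher, where 7.31% of genes were called lower and 7.89% higher. At an unadjusted p under 0.05 there were 3 of 10 members, Fosb, Fosl1 (-1.15, adjusted p = 0.114) and Jund (-1.91, adjusted p = 0.0988), where 37.71% of all genes were. Without CSA mouse 03, Fosb was at -2.34 (adjusted p = 0.0286) and Junb was called as well, at 1.59 (adjusted p = 0.00558), where 7.06% of genes were called lower and 5.79% higher. Jund was then at -1.05 (adjusted p = 0.00951), under the fold limit, and Fosl1 at -0.70 (adjusted p = 0.122).

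**Figure D3:**
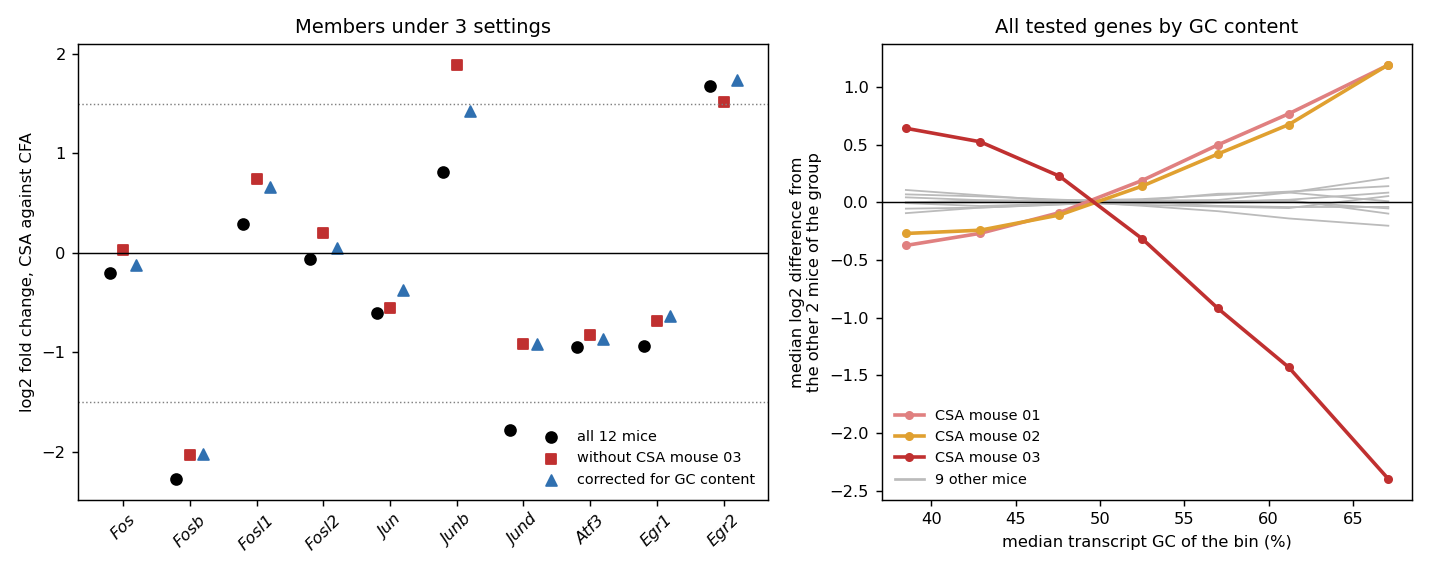
Left, log2 fold change of each member between CSA and CFA with all 12 mice, without CSA mouse 03 and after a correction for transcript GC content, with dotted lines at the fold limit. Right, median log2 difference of each mouse from the other 2 of its group in bins of transcript GC content. CSA mouse 03 falls with GC content while mice 01 and 02, each set against a pair that includes mouse 03, rise and the 9 other mice stay near 0, and Jund and Junb are the members that move most between settings, Jund from -1.78 to -0.91.

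Other genes of the same circuits were read from fixed lists. Some of their genes passed the filter on low values only through the CSA libraries, where they are high, so the counts below hold only genes with at least 1 FPKM in at least 3 of the 9 libraries outside CSA. Of the 13470 such genes, 4.54% were called higher and 9.01% lower in CSA against CFA. All 10 members are among them. Of 16 partners of Fos and Jun, 13 are, and 1 of these fell. Batf, a partner of Jun proteins in lymphocytes, is among the 3 left out, with 0.392 to 1.27 FPKM in CFA and 7.48 to 10.1 in CSA. Atf5 fell by 2.20 (SE 0.49) and, with 61.7% GC, by 1.44 without CSA mouse 03, under the fold limit, so that 0 partners were then called lower. Of 3 tested relatives and corepressors of Egr proteins, 0 were called by limma, and Egr3 (-0.84, adjusted p = 0.142), Nab2 (0.31) and Nab1 (-0.23) were within the fold limit. They were at -0.29, 0.77 (adjusted p = 0.0114) and -0.49 (adjusted p = 0.00237), respectively, without CSA mouse 03. Egr3 is a close relative of Egr1. Between CSA and CSS it fell by 2.61 (adjusted p = 0.000492), and by 2.06 without CSA mouse 03, and its interaction term was -2.35 (adjusted p = 0.0152), or -1.79 without that mouse. It stood at 7.05 to 10.3 FPKM in CSS, 2.0 to 4.26 in CFS, 2.23 to 3.05 in CFA and 0.592 to 2.24 in CSA, so the CSS mice were above all others.

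Upstream, 2 of 10 genes for SRF and its cofactors fell and 0 rose. Myocd, the smooth muscle coactivator of SRF, fell by 2.76 (SE 0.33), from 14.0 to 30.9 FPKM in CFA to 2.06 to 3.67 in CSA. Srf itself fell by 1.57 (SE 0.38, 64.4% GC) and by 1.0 without CSA mouse 03, under the fold limit. Elk1, which recruits MAP kinase signals to SRF, was at -1.10 (adjusted p = 0.0401), and at -0.53 without CSA mouse 03 (adjusted p = 0.0237), under the fold limit in both. Of 21 tested MAP kinases limma called 0, with Mapk11 at 1.43, Map2k6 at -1.21 and Map3k8 at 0.99, and 1 without CSA mouse 03, which was Mapk11 at 1.55. Of 14 tested inhibitors of the pathway 2 rose and 2 fell. Dusp5, an ERK phosphatase, rose by 2.67 (SE 0.51), while Dusp8 (-2.95, SE 0.43) and Dusp3 (-2.07, SE 0.29) fell.

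Of 39 other immediate early genes, 38 passed the filter outside CSA, of which 6 rose in CSA against CFA and 0 fell, and 10 rose without CSA mouse 03. The 1 left out was Dusp2. Socs3, the feedback inhibitor of cytokine receptors, rose by 3.17 on the log2 scale (SE 0.53) and Nfkbiz by 1.85 (SE 0.27). Socs3 went from 2.82 to 8.39 FPKM in CFA to 81.0, 60.9 and 17.6 in CSA, with the lowest CSA value again in mouse 03. Nr4a1, an early gene that tracks Fos in many cells, was at -1.35 (SE 0.62, adjusted p = 0.106). The median of the 38 was 0.38, beside -0.40 over the 10 members.

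**Figure D4:**
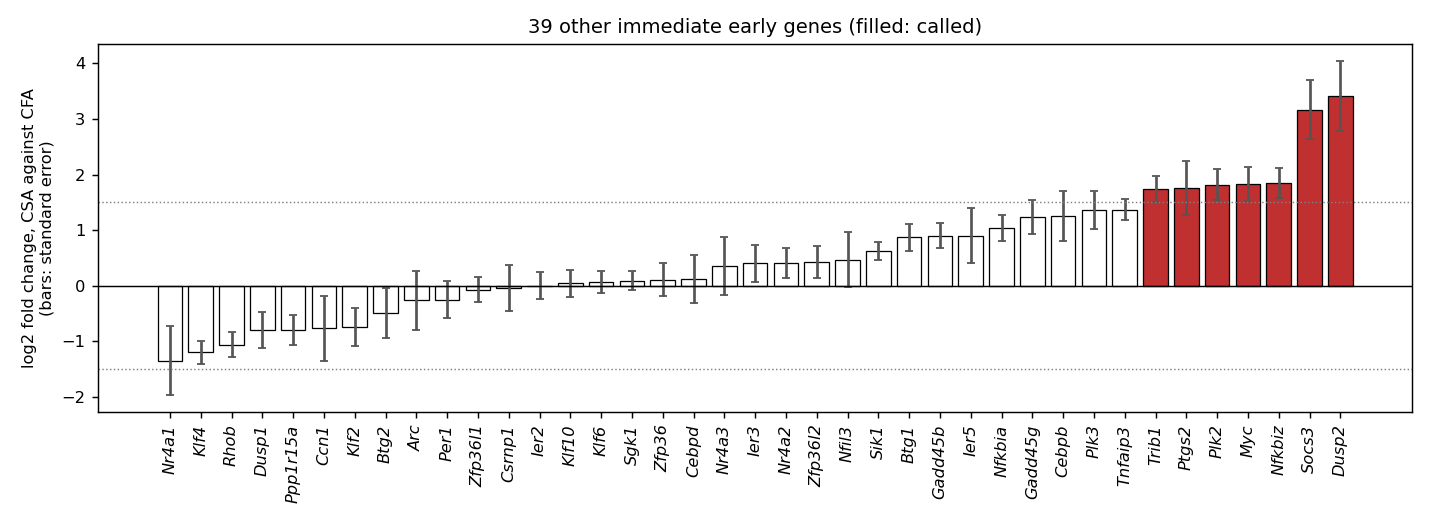
Log2 fold change between CSA and CFA for 39 other immediate early genes, with standard errors as error bars and filled bars for called genes. The 7 called genes, at 1.74 to 3.42, are all higher in CSA, and Dusp2, at 3.42, passed the filter only through CSA.

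Of 25 tested genes long known as targets of AP-1 or Egr, 21 passed the filter outside CSA. Of these 9 rose in CSA against CFA and 0 fell, with a median of 0.93. Ccl2, a monocyte chemokine, rose by 5.54 (SE 0.82) and Spp1, osteopontin, by 5.03 (SE 0.66). Mmp13, a collagenase and 1 of the 4 left out, stood at 0.0515, 0.635 and 0.247 FPKM in CFA and at 29.2, 33.9 and 44.2 in CSA. Of the genes of tissue factor and the PDGF chains, named here after their values were seen, none was called. F3 was at -0.87 (adjusted p = 0.0264), Pdgfa at -0.29 and Pdgfb, with the sign opposite to that of Egr1, at 0.61 (adjusted p = 0.256), or at 1.07 without CSA mouse 03 (adjusted p = 0.0263).

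Heat shock genes respond to stress and to handling of tissue. Of these Hspa1a, an inducible Hsp70 gene, was between 49.0 and 163 FPKM in CFS, 54.8, 169 and 22.5 in CSS, 9.10, 21.2 and 9.13 in CFA and 1.53, 1.91 and 0.968 in CSA. CFS mouse 69 and CSS mouse 55, the mice with the highest Atf3 (130 and 94.3 FPKM), were also those with the highest Hspa1a of their groups. Between CSA and CFA, 3 of 13 heat shock genes fell and 0 rose, Hspa1a by 3.01 (SE 0.68), Hspa1b by 2.49 (SE 0.68) and Hspb1 by 2.39 (SE 0.39), with a median of -0.21 over the 13. The summed FPKM of the 13 was 2001 to 2859 in CFS, 1959 to 2658 in CSS, 1026 to 1613 in CFA and 840 to 1331 in CSA. The part of tissue handling in the members' levels was not tested.

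**Figure D5:**
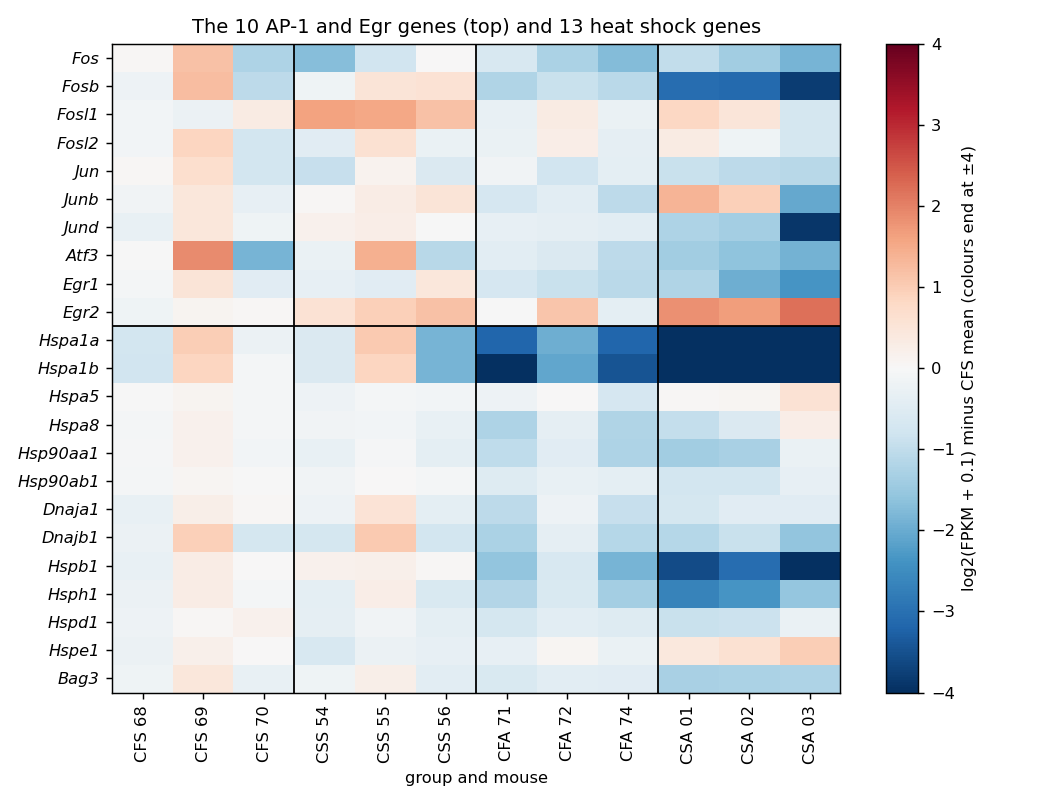
Log2(FPKM + 0.1) of the 10 members (above the line) and 13 heat shock genes in each mouse, relative to the CFS mean. Hspa1a and Hspa1b in the 3 CSA mice reach the end of the colour scale, and CFS mouse 69 is high for Fos, Fosb, Atf3 and Hspa1a together.

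Markers of cell types moved strongly in the same comparison. All 8 smooth muscle genes fell, with a summed FPKM of 5583 to 8527 in CFA and 821 to 985 in CSA, and Myh11 fell by 4.17 (SE 0.14). In CFS, CSS and CFA the sum was 5583 to 10360, so these libraries hold smooth muscle by its markers, and CSA holds less of their RNA. No marker particular to the aorta was on the lists. Of 9 macrophage markers that passed the filter outside CSA 7 rose, and the sum of all 10 went from 349 to 727 in CFA to 2368 to 2539 in CSA. All 3 neutrophil markers that passed it rose, and the summed FPKM of that list was 11.1 to 28.0 in CFA against 519 to 566 in CSA. The T cell and B cell markers passed the filter only through CSA, and the T cell sum was 1.01 to 2.62 FPKM against 27.3 to 39.2. Of 6 endothelial markers 3 fell (193 to 427 against 103 to 134 FPKM), of 6 adipocyte markers 2 fell (89.7 to 258 against 55.1 to 95.9), and 0 of 7 fibroblast markers (2824 to 3138 against 4570 to 5423) and 0 of 4 tested skeletal muscle markers (3.40 to 5.57 against 2.58 to 4.01) were called by limma. Camp and Ly6g were listed at 0 in all CFS mice, and Ckm and Myh4 in all CSA mice.

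Between CSS and CFS, the groups between which Fosl1 and Egr2 did not overlap, limma called 0 genes of every list with all libraries. Without CSA mouse 03 it called 1 gene of the lists, Egr3, higher in CSS by 1.51 on the log2 scale. The largest median of a list was that of the adipocyte markers, all 6 of which were lower in CSS by log2 differences of -2.52 to -1.05 with a median of -1.21, and their summed FPKM was 183 to 647 in CFS and 64.8 to 250 in CSS. CFS mouse 69 had an endothelial sum of 91.4 FPKM against 389 and 393 in its group mates. Skeletal muscle markers reached 153 FPKM in CFS mouse 68 and 244 in CSS mouse 55, and at most 5.57 in the other mice. The part of cell composition in the members' levels was not tested.

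Genes with the pattern most like Fos, Jun and Fosl1 over the 12 libraries were listed by Pearson r of log2(FPKM + 0.1), which is a description of these libraries, since they share depth, GC content and harvest. For Fos they were Btg2 (r = 0.927), Zfp747 (0.853), Dusp1 (0.840), Nr4a1 (0.833) and Gm32886 (0.825), of which Btg2, Dusp1 and Nr4a1 are on the list of immediate early genes. For Jun they were Srgap3 (0.945), Zfp827 (0.922), Hmgxb4 (0.910), Snx24 (0.903) and Tpi-rs11 (0.894), none of them on that list. For Fosl1 they were Dnttip1 (0.903), Hes1 (0.898), an unannotated feature (0.892), Ctdp1 (0.892) and Mgp (0.883).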

How the data were processed

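RNA-Seq values of 12 aortas, 1 mouse each, were read from 1 table whose columns were matched to the samples by name. The authors deposited FPKM per gene and mouse without pooling. The submitters' processing notes name HISAT2 2.0.5, StringTie 1.3.3b, featureCounts 1.5.0-p3 and the build mm10. The study's methods name DEG-Seq, which needs counts, so limma was used on the FPKM. The deposited FPKM carry a scaling between libraries that the sources used here do not describe, with median-of-ratios size factors of 1.01351 in all 12. With exon lengths of GENCODE on GRCm38, 98.05% to 98.52% of the values under 100 fragments came within 0.05 of a whole number, and the sum of these fragments was taken as depth.

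The filter on low values asked for 3 or more libraries with 1 FPKM or above, which left 14676 genes. Their log2(FPKM + 0.1) entered limma 3.58.1 (R 4.3.3; lmFit, then eBayes with trend and robust), with 1 coefficient per group and no covariate. Adjustment of p followed Benjamini and Hochberg, separately for every comparison. The fit was first tested on simulated data. Two-sided exact permutation tests used the mean log2 values of 2 groups. Transcript GC content was known for 14407 of the tested genes. The other steps used pandas 2.3.3, matplotlib 3.10.9 and numpy 2.4.6 under Python 3.11.15.

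The members and the 17 other gene lists were chosen with earlier results of these data known, and no list was tested as a set. Counts over the lists between CSA and CFA were limited, after the data were seen, to genes that pass the filter in the libraries outside CSA. The text names all members, up to 3 genes of each list with the largest difference between CSA and CFA, and the 5 genes most correlated with Fos, Jun and Fosl1. One gene that this rule names is not reported here. Alternatives were a pseudocount of 1, no filter, a mean FPKM of at least 5, 2 other scalings, eBayes without trend, array weights, no fold limit, treat, a fit of only the 2 groups, and leaving out each mouse in turn. A GC correction and the removal of 2 pairs of mice were added after the data were seen.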

Additional observations from a re-analysis of the deposited data

Results flagged for a closer look

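For Fosb, the difference between CCN2SMCΔ and CCN2fl/fl mice was not the same under Ang II as under saline. The interaction term was -2.58 on the log2 scale (SE 0.66, adjusted p = 0.0151 by limma), from a genotype difference of -2.27 under Ang II, where all 3 CSA mice were below all 3 CFA mice, and one of 0.31 under saline, where the mice overlapped. Over 22 alternatives the interaction lay between -3.20 and -1.75, with an adjusted p of 0.000521 to 0.0417 by limma. With treat, which is not among these, Fosb was not called.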

How the results depend on the processing

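The number of members called between CSA and CFA, 3 with all mice, was 1 with a pseudocount of 1 and 0 with treat. Leaving out each mouse in turn gave 1 to 3, the 1 without CFA mouse 74. Between CSA and CSS it was 3 and became 5 with no fold limit and 1 with treat, with the GC correction and without CFS mouse 69 and CSA mouse 03, and 1 to 4 on leaving out a mouse, the 1 without CSA mouse 03. For the interaction it was 1, 0 with treat and 1 to 2 on leaving out a mouse, the 2 without CSA mouse 01 or 03. Of 1130 alternative values for the fold changes of members, 1047 kept direction and side of the threshold and 58 changed sign.

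Of the sign changes, 3 had an adjusted p under 0.05, all of them Junb between CSA and CSS, which was -0.20 with all mice (adjusted p 0.0243 with array weights, 0.0164 without CSA mouse 03 and 0.00585 without CFS mouse 69 and CSA mouse 03). Equal FPKM sums gave Fosl2 0.02 (CSA against CFA) and 0.03 (CSS against CFS). Array weights gave Fosl2 0.18, 0.03, 0.03 (CSA against CSS) and 0.15 (interaction) and Junb 0.74 between CSA and CSS. The GC correction gave Fosl2 0.05 (CSA against CFA) and 0.11 (interaction), Jun 0.14 (interaction), Junb 0.52 (CSA against CSS), and Jund -0.05 and Atf3 0.00 between CSS and CFS. Without CFS mouse 69 and CSS mouse 55, Fosl2 was 0.07 (CSS against CFS), 0.31 (CFA against CFS) and 0.17 (CSA against CSS), Egr1 0.32 (CSS against CFS) and Atf3 0.26 (CFA against CFS). Without CFS mouse 69 and CSA mouse 03, Fos was 0.03 and Fosl2 0.20 (CSA against CFA), Fosl2 0.40 and Egr1 0.15 (CSS against CFS), Fosl2 0.31 and Atf3 0.26 (CFA against CFS), and Fosl2 0.10 and Junb 0.87 (CSA against CSS). The cause was not tested.

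Leaving out each mouse in turn changed the sign of other values. Genes of the other lists were among them and are not all given here. Between CSA and CFA, the B cell marker Cd79a ran from -0.80 to 1.51. Dusp4 was -0.14 with all mice and 0.79 without CSA mouse 03. The members that changed sign between CSA and CFA were Fos (-0.45 to 0.08), Fosl1 (-0.02 to 0.74) and Fosl2 (-0.32 to 0.20). Between CSS and CFS they were Fosb (-0.21 to 0.94), Fosl2 (-0.40 to 0.40), Jund (-0.01 to 0.36), Atf3 (-0.91 to 0.97) and Egr1 (-0.39 to 0.15). Between CFA and CFS they were Fosl1 (-0.29 to 0.08), Fosl2 (-0.49 to 0.31), Atf3 (-1.62 to 0.26) and Egr2 (-0.20 to 0.55). Between CSA and CSS they were Fosl2 (-0.41 to 0.17) and Junb (-0.84 to 0.87), and for the interaction Fosl2 (-0.46 to 0.34), Jun (-0.49 to 0.22) and Junb (-0.11 to 1.59).

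No paired analysis was possible because no mouse number is shared between groups. With 3 mice per group, the 95% interval of Fos between CSA and CFA ran from -1.49 to 1.09.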
